A study of Mus musculus with 7 samples.

Results

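The vascular endothelial growth factor (VEGF) family studied here comprises 10 genes: the ligand genes Vegfa, Vegfb, Vegfc, Vegfd and Pgf, the receptor tyrosine kinase genes Kdr (VEGFR-2), Flt1 (VEGFR-1) and Flt4 (VEGFR-3), and the neuropilin co-receptor genes Nrp1 and Nrp2. They were chosen by family membership and found by symbol among 52636 genes of the count table. All 10 were in it, and 8 passed the filter on low counts that left 15512 genes for testing. Vegfd and Pgf did not. Polyadenylated RNA had been sequenced from liver endothelial cells of mice with a knockout of Maf, which encodes the transcription factor c-Maf (KO, 4 libraries), and from control mice (3 libraries). The cells had been isolated by fluorescence-activated sorting. The labels give tissue and genotype but, in the sources used here, not strain, age, sex, any Cre driver or the deleted stretch of Maf. They do not say that libraries came from separate animals, so p-values measure the spread between libraries, which may be partly technical.

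In liver endothelium without Maf, the transcripts of all 3 VEGF receptor kinases, both neuropilins, Vegfa and Vegfb were lower, and Vegfc was higher. VEGF-A signals mainly through VEGFR-2, the principal driver of endothelial survival, proliferation and permeability. VEGFR-1 binds VEGF-A, VEGF-B and placental growth factor (PlGF, the product of Pgf) with weak kinase output and acts largely as a trap. VEGF-C and VEGF-D signal through VEGFR-3, which in most adult organs is confined to lymphatic vessels but is also carried by the fenestrated sinusoids of the liver, where VEGF made by neighbouring hepatocytes maintains the sinusoidal phenotype.

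Total counts were 25785691 to 32960007 per KO library and 24772716 to 30415437 per control library. Levels are CPM, a gene's share of its library's counts brought to one common library size, after edgeR's TMM scaling between libraries, and error is SD over 4 KO and 3 control libraries. Tests are edgeR's quasi-likelihood test with Benjamini-Hochberg adjustment over all genes tested, and rose and fell mean an adjusted p under 0.05. Maf stood at 28.9, 159, 124 and 37.7 CPM in KO libraries 1 to 4 and at 1664, 2088 and 2147 CPM in controls 1 to 3. Of 9 pan-endothelial markers 1 rose, 4 fell and 4 did not pass. Of all genes tested 23.0% rose and 22.2% fell. Of genes whose log2 CPM averaged 8 or more, as for most of these markers, 19.6% rose and 42.6% fell. Marker counts given below are to be read beside the shares over all genes. The summed level of the pan-endothelial markers was 9495 to 12880 CPM in KO libraries and 14400 to 16150 CPM in controls. The sum of 10 liver sinusoidal markers was 7673 to 12690 CPM in KO libraries and 36720 to 40410 CPM in controls. Among markers of other cells, 15 hepatocyte genes summed to 1604, 413, 480 and 794 CPM in KO 1 to 4, against 304 to 377 CPM in controls, and 12 stellate cell and fibroblast genes to 11.4 to 49.3 CPM in KO libraries, against 23.1, 50.9 and 177 CPM in controls 1 to 3. In such bulk samples fewer cells of a type and less RNA per cell cannot be told apart.

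Of the 8 family members tested, 7 fell and 1 rose. Across all genes tested, 22.2% fell and 23.0% rose. Falls were more frequent among abundant genes. Of 9598 genes whose log2 CPM averaged 3 or more, the range that holds all 8 tested members, 30.4% fell and 22.6% rose. Of the 705 genes whose log2 CPM averaged 8 or more, the range that holds the 5 receptor and neuropilin genes, 42.6% fell and 19.6% rose. KO and control libraries stood apart, with no overlap, for each of the 8 tested members and for 50.3% of all genes tested. The median log2 fold change was -1.30 over the 8 members and 0.04 over all genes tested.

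**Figure D1:**
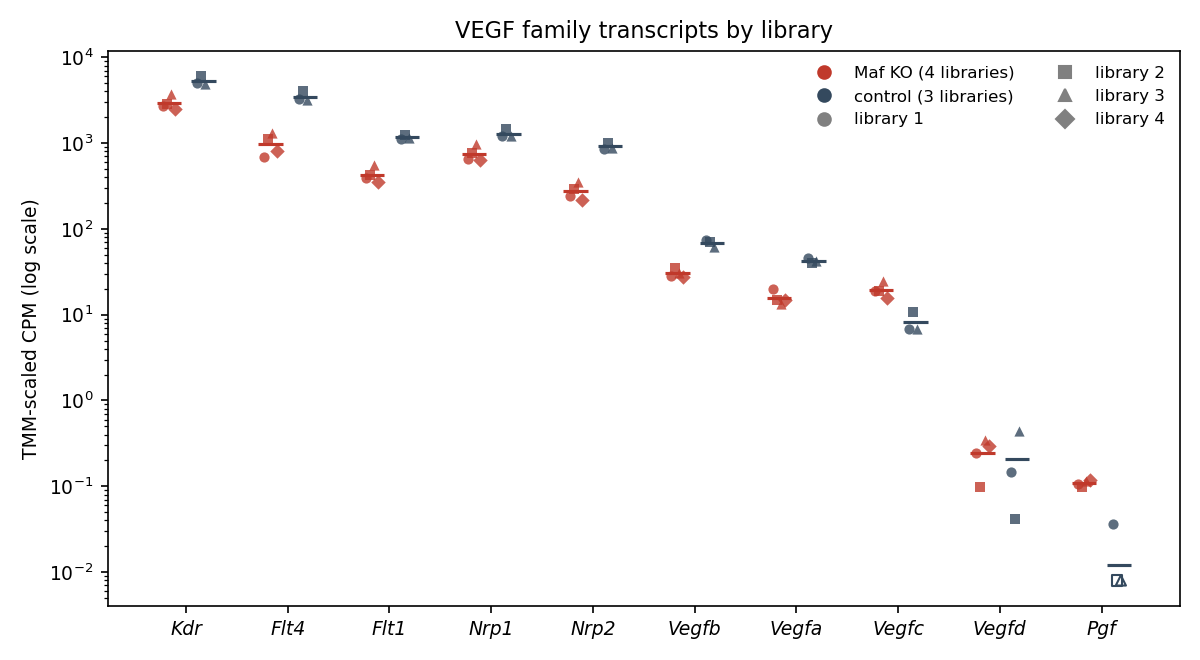
TMM-scaled CPM (log axis) of the 10 VEGF family genes in each Maf KO (red) and control (dark) library. Horizontal bars are group means, and open symbols mark libraries with 0 counts, drawn at the bottom of the axis. For Kdr, Flt4, Flt1, Nrp1, Nrp2, Vegfb and Vegfa the 4 KO libraries lie below the 3 controls, and for Vegfc they lie above them.

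Kdr, the main signalling receptor, was the most abundant family member per exon length in both groups. The gene (ENSMUSG00000062960) spans bases 75932827 to 75978458 of chromosome 5, minus strand, in build GRCm38, which holds for all gene positions here. KO libraries 1 to 4 held 2680, 2821, 3739 and 2466 CPM of Kdr, and controls 1 to 3 held 4953, 6045 and 4919 CPM. Every KO library lay below every control, with KO 3 the nearest. Kdr averaged 2926 ± 561 CPM in the KO and 5306 ± 640 CPM in controls, a 1.81-fold fall (log2 fold change -0.86, SE 0.181, 95% interval -1.27 to -0.45, adjusted p = 0.00467).

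Flt1, whose gene also gives a soluble form that binds VEGF outside the cell, lies on chromosome 5 from 147561604 to 147726011, minus strand (ENSMUSG00000029648). KO libraries 1 to 4 held 388, 420, 547 and 348 CPM, against 1104, 1253 and 1132 CPM in controls 1 to 3. The highest KO library was well below the lowest control. Flt1 fell 2.73-fold (log2 fold change -1.45, SE 0.160, adjusted p = 0.000157). Gene counts do not separate the soluble from the membrane form.

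Flt4, the VEGF-C and VEGF-D receptor, had the lowest log2 fold change of the family, close to that of Nrp2. It lies on chromosome 11 from 49609263 to 49652739 on the plus strand (ENSMUSG00000020357). Its level was 690, 1102, 1305 and 804 CPM in KO 1 to 4 and 3273, 4015 and 3162 CPM in controls 1 to 3. KO 1 and KO 4 were the lowest, with 19.8% and 23.1% of what the controls averaged, and KO 2 and KO 3 kept 31.6% and 37.5%. KO 1 and KO 4 were also the libraries with the least remaining Maf (1.47% and 1.92% of the controls' mean, and 8.08% and 6.33% in KO 2 and KO 3) and the most hepatocyte transcripts. The part of either in the spread of Flt4 was not tested. Flt4 fell 3.57-fold (log2 fold change -1.84, SE 0.226, 95% interval -2.35 to -1.33, adjusted p = 0.000277). Lymphatic endothelium is the other cell type known for VEGFR-3. Its 6 markers summed to 148 to 327 CPM in KO libraries and 790 to 935 CPM in controls, nearly all of it Lyve1, which liver sinusoids also express and which fell 4.05-fold, to 215 ± 89.3 CPM in the KO, against 873 ± 82.3 CPM in controls (adjusted p = 0.000597). Of the 5 markers tested 2 fell, 1 rose and 2 did not pass, with a median log2 fold change of -1.52. Reln, which encodes a matrix glycoprotein, fell to 0.852 ± 0.179 CPM in the KO, against 2.498 ± 1.57 CPM in controls (adjusted p = 0.0242). Its groups overlapped, at 0.649 to 1.03 CPM in KO libraries and 0.765, 2.91 and 3.82 CPM in controls 1 to 3. Prox1, the lymphatic master factor, rose to 5.25 ± 0.360 CPM in the KO, against 3.58 ± 0.531 CPM in controls (adjusted p = 0.0247). Pdpn, whose log2 fold change is the median given, did not pass at 0.298 ± 0.191 CPM in the KO and 0.886 ± 1.26 CPM in controls (adjusted p = 0.254). Mmrn1 did not pass at 1.56 ± 0.869 CPM in the KO and 0.799 ± 0.713 CPM in controls (adjusted p = 0.215). Ccl21a had no count in any library. The part of lymphatic cells in the fall of Flt4 was not tested.

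Nrp1, the co-receptor of VEGFR-2 and of class 3 semaphorins, lies on chromosome 8 from 128358604 to 128503363, plus strand (ENSMUSG00000025810). It stood at 643, 771, 972 and 633 CPM in KO 1 to 4 and at 1207, 1442 and 1219 CPM in controls 1 to 3. KO 3 came nearest to the controls, as it did for Kdr. The fall was 1.71-fold (log2 fold change -0.77, SE 0.170, adjusted p = 0.00589). Nrp2, which binds VEGF-C and partners VEGFR-3, lies on chromosome 1 from 62703285 to 62818695, plus strand (ENSMUSG00000025969). It held 239, 292, 349 and 215 CPM in KO 1 to 4 and 861, 997 and 878 CPM in controls 1 to 3. The groups were far apart, and the fall was 3.33-fold (log2 fold change -1.74, SE 0.169, adjusted p = 8.22e-05). The annotated genes Gm29083, on the other strand, and Gm37121 lie within Nrp2 and had at most 3 and 90 counts in a library, few beside those of Nrp2 itself.

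The falls differed in size among the receptor genes, with log2 fold changes of -0.86 for Kdr, -1.45 for Flt1 and -1.84 for Flt4. Ratios of counts within a library do not depend on scaling between libraries, and 5 were compared by two-sided exact permutation tests with adjustment over the 5. With 3 against 4 libraries the smallest p such a test can give is 0.0571, so none could pass 0.05. The log2 ratio of Kdr to Flt4 was 1.96, 1.36, 1.52 and 1.62 in KO 1 to 4 and 0.60, 0.59 and 0.64 in controls 1 to 3, which corresponds to a 2.01-fold shift towards Kdr (exact p = 0.0571, adjusted p = 0.0714). The log2 ratio of Kdr to Flt1 was 2.75 to 2.82 in KO libraries and 2.12 to 2.27 in controls, a 1.51-fold shift with the same exact p. Between the neuropilins, the log2 ratio of Nrp1 to Nrp2 was 1.40 to 1.56 in KO libraries and 0.47 to 0.53 in controls, a 1.96-fold shift, again with exact p = 0.0571. In these 3 ratios the groups did not overlap. The log2 ratio of Nrp1 to Kdr lay between -2.06 and -1.87 in KO libraries and between -2.07 and -2.01 in controls. These ranges overlapped, with a mean difference of 0.08 (exact p = 0.171).

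**Figure D2:**
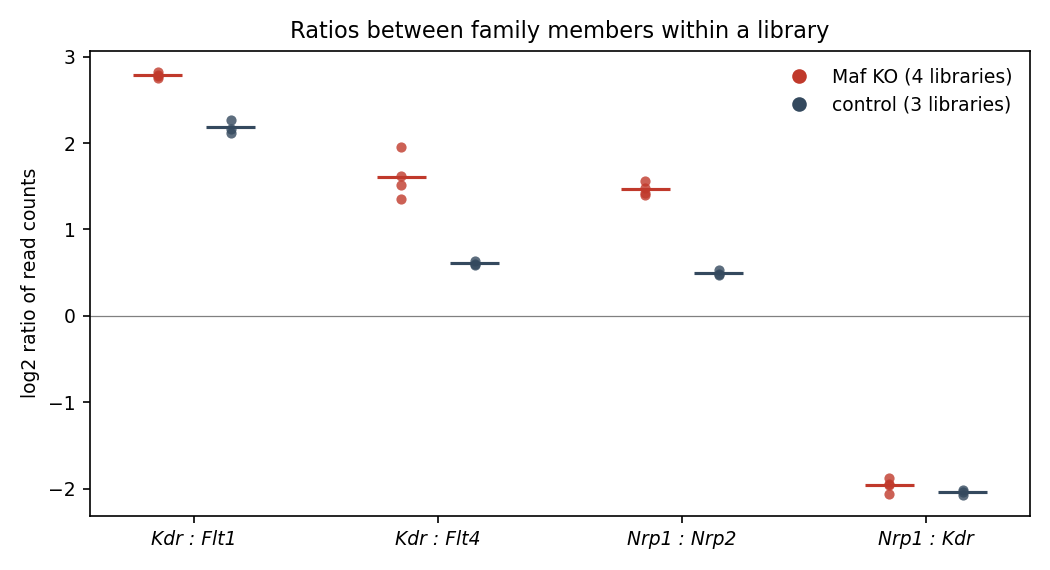
Log2 ratio of read counts between pairs of family members in each Maf KO (red) and control (dark) library, with group means as bars. Kdr to Flt1, Kdr to Flt4 and Nrp1 to Nrp2 are higher in all 4 KO libraries than in all 3 controls, and Nrp1 to Kdr overlaps near -2.

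The promoters of the 3 receptor genes are shown with that of Vegfc, the member that moved the other way, so that they can be read side by side. Each is the 250 bases before the RefSeq start (GRCm38.p6), written 5′ to 3′ on the gene's strand. For Flt4 these bases lie within the gene as placed above, which begins at 49609263, before the RefSeq start used. Which start the Flt4 transcripts used was not tested. Capitals mark matches, on either strand, to any of 9 motifs. For Maf these are the recognition half-site TGCTGA and paired strings of it and its reverse complement, TGCTGANNNTCAGCA and TGCTGANNNNTCAGCA. The next are the AP-1 site TGANTCA, the hypoxia response core ACGTG and the ETS site CCGGAA. The last are the cAMP response element TGACGTCA, the TATA box TATAAA and the GC box GGGCGG. The half-site is part of both paired strings, and full Maf sites as such were not searched.
Kdr, chr5:75978456-75978705, minus strand: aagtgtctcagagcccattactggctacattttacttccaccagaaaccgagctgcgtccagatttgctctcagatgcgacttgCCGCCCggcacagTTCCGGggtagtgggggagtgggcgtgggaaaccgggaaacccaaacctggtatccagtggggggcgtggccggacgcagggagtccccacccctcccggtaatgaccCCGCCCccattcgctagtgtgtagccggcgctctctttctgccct
Flt1, chr5:147726012-147726261, minus strand: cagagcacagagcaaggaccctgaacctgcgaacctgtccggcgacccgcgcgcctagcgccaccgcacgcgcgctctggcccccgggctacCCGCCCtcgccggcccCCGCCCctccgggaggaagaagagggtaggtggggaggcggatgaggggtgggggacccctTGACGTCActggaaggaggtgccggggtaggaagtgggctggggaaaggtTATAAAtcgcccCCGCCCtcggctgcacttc
Flt4, chr11:49609429-49609678, plus strand: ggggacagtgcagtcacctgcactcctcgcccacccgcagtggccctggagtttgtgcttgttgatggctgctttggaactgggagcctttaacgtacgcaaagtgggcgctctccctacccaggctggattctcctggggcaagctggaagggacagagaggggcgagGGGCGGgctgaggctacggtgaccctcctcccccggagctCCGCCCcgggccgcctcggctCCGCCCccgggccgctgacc
Vegfc, chr8:54077282-54077531, plus strand: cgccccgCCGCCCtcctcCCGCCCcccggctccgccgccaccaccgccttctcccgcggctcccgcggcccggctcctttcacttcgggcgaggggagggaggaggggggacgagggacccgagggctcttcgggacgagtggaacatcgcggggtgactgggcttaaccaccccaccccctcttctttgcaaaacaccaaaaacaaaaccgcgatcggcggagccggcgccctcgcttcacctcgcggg
Kdr holds an ETS site that begins at position -153 from the start, a motif present in 14.9% of 32851 windows of 300 bases (250 before to 50 after a RefSeq start). Flt1 holds a cAMP response element at -81, a motif in 1.79% of windows, and a TATA box at -31, a motif in 13.6%. The matches in Flt4 and Vegfc are GC boxes, which 35.7% of all windows hold. The 10 genes have 12 windows, of which 10 hold a GC box. No match to the Maf half-site was in any of the 12 windows, where 19.5% of all windows hold it. None held the AP-1 site, which 7.81% of all windows hold. The paired strings contain the half-site and so were absent too, and of all 32851 windows 1 and 0 hold them. These are letter matches in short windows and say nothing of binding there or elsewhere.

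Among the ligands, Vegfa and Vegfb fell and Vegfc rose. Vegfa, the main ligand of VEGFR-2, lies on chromosome 17 from 46016993 to 46032369, minus strand (ENSMUSG00000023951). It stood at 19.7, 14.8, 13.3 and 15.02 CPM in KO 1 to 4 and at 45.6, 39.5 and 42.0 CPM in controls 1 to 3. All KO libraries were below 47% of the control mean. Vegfa fell by 1.43 on the log2 scale (SE 0.134, 95% interval -1.74 to -1.13, adjusted p = 6.52e-05). KO 1, the highest of the KO libraries for Vegfa, was also the highest for the hepatocyte markers, whose part in the remaining Vegfa was not tested. Splice forms of Vegfa, which differ in heparin binding, are not separated in gene counts.

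Vegfb, a ligand of VEGFR-1 linked to endothelial lipid handling, lies on chromosome 19 from 6982473 to 6987651, minus strand (ENSMUSG00000024962). It held 27.9, 35.2, 30.8 and 27.2 CPM in KO 1 to 4 and 73.4, 70.8 and 60.9 CPM in controls 1 to 3. The KO libraries lay close together, and the fall was 2.26-fold (log2 fold change -1.17, SE 0.111, adjusted p = 7.00e-05).

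Vegfc, the ligand of VEGFR-3, lies on chromosome 8 from 54077606 to 54187096, plus strand (ENSMUSG00000031520). KO libraries 1 to 4 held 18.7, 18.6, 24.7 and 15.7 CPM, against 6.84, 10.7 and 6.89 CPM in controls 1 to 3. The lowest KO library was above control 2, the highest control. Vegfc averaged 19.4 ± 3.81 CPM in the KO and 8.14 ± 2.21 CPM in controls, a 2.39-fold rise (log2 fold change 1.25, SE 0.207, 95% interval 0.79 to 1.72, adjusted p = 0.00133). Platelets and fibroblasts are other known sources of VEGF-C. The sum of 7 platelet and megakaryocyte genes was 34.7 to 47.8 CPM in KO libraries and 23.9 to 27.6 CPM in controls. Its largest part was Itga2b, named after its values were seen, at 29.5 CPM in the KO and 12.6 CPM in controls. Of the 6 genes tested, 4 rose, Itga2b among them, and 1 fell. Pf4, the platelet factor gene, did not pass at 3.31 CPM in the KO and 4.90 CPM in controls (adjusted p = 0.103). The part of platelets in the rise of Vegfc was not tested. Of 9 stellate cell and fibroblast markers tested 4 fell and 0 rose, with the sums given above.

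Vegfd and Pgf were close to the limit of detection. A count of 0 allows up to 3 counts, which is 0.0873 to 0.106 CPM in KO libraries and 0.109 to 0.132 CPM in controls. Such limits and the intervals below cover counting error only. Pgf, on chromosome 12 from 85166635 to 85177790, minus strand (ENSMUSG00000004791), had 3, 3, 4 and 4 counts in KO 1 to 4 and 1, 0 and 0 counts in controls 1 to 3. Its summed counts were 14 in the KO and 1 in controls, a ratio of 8.17 per scaled library size with an exact 95% counting interval of 1.24 to 346. In a fit without the low-count filter Pgf did not pass (adjusted p = 0.0801). The log2 ratio of Pgf to Vegfa, the last of the 5 ratios, was -7.315 to -6.665 in KO libraries and -10.90 to -9.71 in controls (exact p = 0.0571, adjusted p = 0.0714), values that in controls rest on 1 count of Pgf and the 0.5 added to each count. Vegfd, on chromosome X from 164373378 to 164402650, plus strand (ENSMUSG00000031380), had 7, 3, 12 and 10 counts in KO 1 to 4 and 4, 1 and 10 counts in controls 1 to 3. The groups overlapped, with a ratio of 1.25 and an exact counting interval of 0.655 to 2.48.

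**Figure D3:**
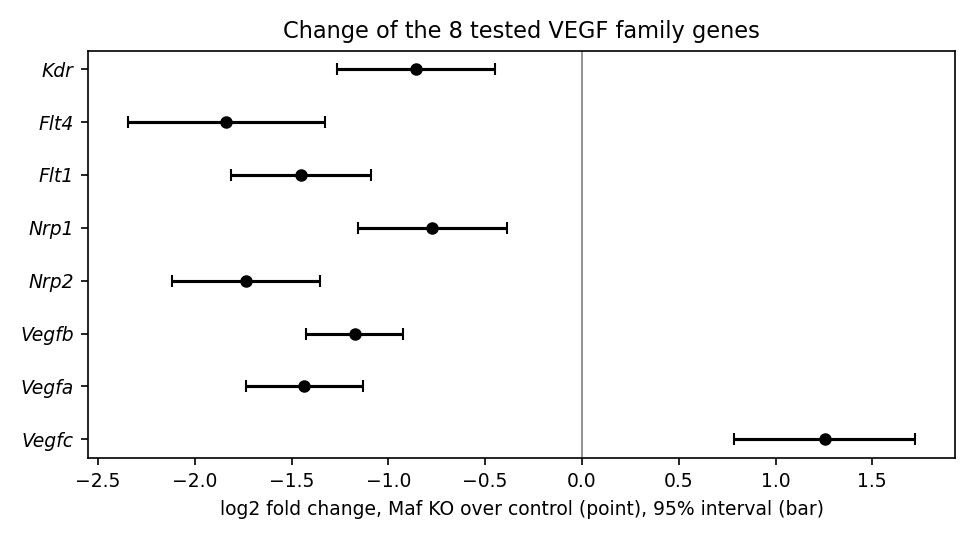
Log2 fold change of Maf KO over control for the 8 tested family members, with 95% intervals from edgeR's quasi-likelihood fit. All intervals exclude 0: 7 lie below it, with Flt4 lowest at -1.84, and Vegfc lies above it at 1.25.

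Per kilobase of annotated exon, a scale on which genes can be compared, the receptors stood far above the ligands. In KO libraries the order was Kdr at 324 ± 62.2 CPM per kb, Flt4 at 118 ± 34.0, Nrp1 at 77.1 ± 16.1, Flt1 at 31.5 ± 6.37, Nrp2 at 23.1 ± 5.01, Vegfb at 18.9 ± 2.26, Vegfc at 7.93 ± 1.56, Vegfa at 3.67 ± 0.648, Vegfd at 0.103 ± 0.0449 and Pgf at 0.0377 ± 0.00328 CPM per kb. In controls it was Kdr at 588 ± 70.9 CPM per kb, Flt4 at 423 ± 56.4, Nrp1 at 132 ± 13.5, Flt1 at 86.1 ± 5.86, Nrp2 at 77.0 ± 6.28, Vegfb at 42.6 ± 4.11, Vegfa at 9.89 ± 0.716, Vegfc at 3.33 ± 0.904, Vegfd at 0.0866 ± 0.0855 and Pgf at 0.00418 ± 0.00724 CPM per kb. Vegfc stood above Vegfa in all KO libraries and below it in all controls. Neighbours whose libraries overlapped on this scale were, in the KO, Flt4 and Nrp1, Flt1 and Nrp2, Nrp2 and Vegfb, and Vegfd and Pgf, and in controls Flt1 and Nrp2.

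The make-up of each class differed between the groups. Vegfc made up 25.6, 23.0, 31.0 and 23.7% of the ligands' summed CPM per kb in KO 1 to 4 and 4.72, 7.57 and 5.54% in controls 1 to 3. Vegfb was the largest share in each library, at 61.6 ± 3.68% in the KO and 76.1 ± 1.23% in controls, and Vegfa made up 12.1 ± 2.67% in the KO and 17.8 ± 1.69% in controls. The ligands' sum was 30.6 ± 2.80 CPM per kb in the KO and 55.9 ± 4.54 in controls. Among receptor kinases, Kdr made up 65.4 to 72.5% in KO libraries and 53.4 to 53.8% in controls, while Flt4 made up 20.5 to 28.0% in KO libraries and 37.9 to 39.0% in controls. Their sum was 474 ± 99.2 CPM per kb in the KO and 1097 ± 133 in controls. Nrp2 made up 21.9 to 23.8% of the neuropilins in KO libraries and 36.4 to 37.3% in controls. These shares are descriptions of the levels tested above.

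**Figure D4:**
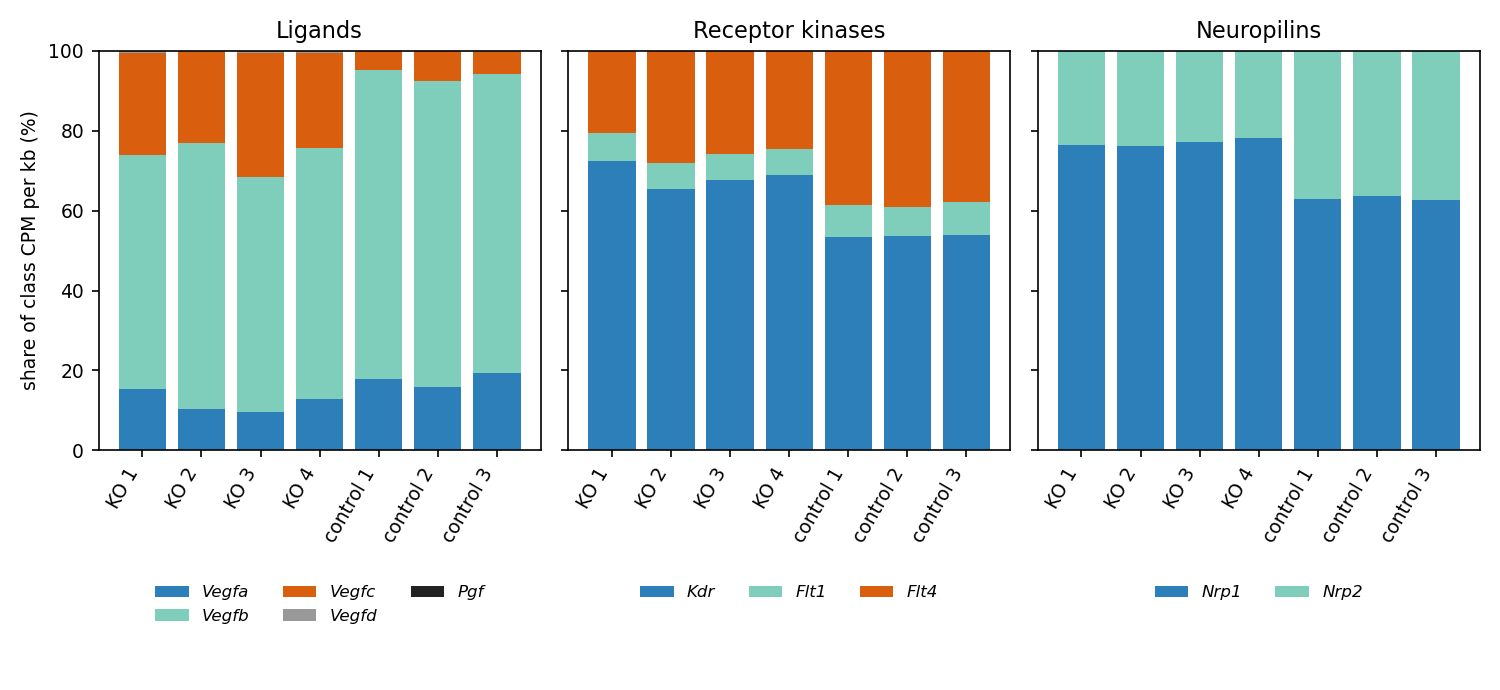
Share of each member in its class (percent of summed CPM per kb of exon) in 4 Maf KO and 3 control libraries, for ligands, receptor kinases and neuropilins. Vegfc takes 23.0 to 31.0% of the ligand bar in KO libraries and 4.72 to 7.57% in controls, and Flt4 and Nrp2 take less of theirs in the KO. Vegfd and Pgf are too small to see.

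Per the lane numbers in the labels, KO 3 and control 3 were run in lane 4 and the remaining 5 libraries in lane 5. Within lane 5, 3 KO against 2 control libraries, the log2 fold changes were -1.10 for Kdr, -1.66 for Flt1, -2.12 for Flt4, -1.003 for Nrp1, -1.95 for Nrp2, -1.41 for Vegfa, -1.31 for Vegfb and 0.96 for Vegfc, and each passed edgeR's test (highest adjusted p = 0.00822, for Vegfc), where 43.6% of all genes tested were called, 24.2% as falls and 19.4% as rises. The single pair in lane 4 allows no test. Its log2 ratios had the same signs: -0.40 for Kdr, -1.05 for Flt1, -1.28 for Flt4, -0.33 for Nrp1, -1.33 for Nrp2, -1.66 for Vegfa, -0.98 for Vegfb and 1.84 for Vegfc. The receptor genes, the neuropilin genes and Vegfb lay closer together in the lane 4 pair, and Vegfa and Vegfc lay farther apart, differences between lanes that were not tested.

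The genes whose log2 CPM followed each member most closely over the 7 libraries were sought among 9297 other genes whose log2 CPM averaged 3 or more. Beside Flt4 these were Ank, Plod1 and Asap1 (Pearson r 0.998 to 0.999), beside Flt1 Sbf2, Entpd5 and Ngly1 (0.999), and beside Kdr Ano10, Cdk19 and Cask (0.998 to 0.999). Beside Nrp1 they were Dbnl, Slc10a7 and Jkamp, and beside Nrp2 Csgalnact2, Osbpl9 and Iqgap2 (0.998 to 0.999 for these 6). Vegfb was followed by Inafm2, Rhobtb2 and Zbtb39 (0.996 to 0.997), Vegfa by Tmem243, Pcsk7 and Fbxl4 (0.990 to 0.992), and Vegfc by Scd2, Pknox2 and Ulbp1 (0.978 to 0.993). With 7 libraries in 2 groups and 45.2% of all genes called, such values describe differences between the groups that the genes share.

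Downstream of the receptors, falls outnumbered rises among effector genes with TMM scaling but not with library totals. Of 50 genes for signalling proteins of the VEGF receptors 46 were tested: 19 fell, 7 rose and 20 did not pass. Of all genes tested 22.2% fell and 23.0% rose. Of those whose log2 CPM averaged 3 or more, 30.4% fell and 22.6% rose. The effectors' median log2 fold change was -0.23. With library totals in place of TMM, which called 12.7% of all genes as falls and 41.1% as rises (53.8% in all), 11 fell, 12 rose and the median was 0.04. Prkcb, protein kinase C beta, fell 6.23-fold, with 2.62, 7.39, 7.04 and 5.08 CPM in KO 1 to 4 and 27.4, 41.3 and 35.2 CPM in controls 1 to 3 (adjusted p = 0.000184). Pik3r1, the regulatory subunit of phosphoinositide 3-kinase, averaged 47.5 ± 5.90 CPM in the KO and 114 ± 12.7 CPM in controls (adjusted p = 6.46e-05). Prkd1, protein kinase D1, rose to 13.2 ± 1.65 CPM in the KO, against 4.46 ± 0.381 CPM in controls (adjusted p = 6.77e-05). Hspb1, an actin-regulating heat shock protein phosphorylated downstream of VEGFR-2, averaged 572 ± 202 CPM in the KO and 17.1 ± 2.80 CPM in controls. Among genes that did not pass, Plcg1, the phospholipase recruited by VEGFR-2, had a log2 fold change of -0.21 (adjusted p = 0.0997) and Map2k1, a kinase of the MAP kinase cascade, one of -0.02 (adjusted p = 0.889) in edgeR's test.

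Of 24 genes for proteins that partner or traffic the receptors, 15 fell, 2 rose and 7 did not pass. The shares over all genes tested were 22.2% falls and 23.0% rises. Where log2 CPM averaged 3 or more they were 30.4% and 22.6%, and where it averaged 8 or more 42.6% and 19.6%. The list's median log2 fold change was -0.46. With library totals 9 fell, where 12.7% of all genes fell. Ptprb, the endothelial phosphatase that restrains VEGFR-2 and Tie2, held 1519, 1900, 2599 and 1601 CPM in KO 1 to 4 and 4919, 5850 and 5960 CPM in controls 1 to 3, a 2.93-fold fall (adjusted p = 0.000419). Dab2, a clathrin adaptor used in VEGFR endocytosis, fell 3.32-fold (adjusted p = 1.10e-05), Unc5b, a netrin receptor, averaged 10.8 ± 2.56 CPM in the KO and 25.5 ± 0.586 CPM in controls, and Rab4a, of fast receptor recycling, 9.45 ± 0.955 CPM in the KO and 15.7 ± 1.06 CPM in controls. The rises were of Mcam, a reported VEGFR-2 co-receptor, and Efnb2, the ephrin that promotes VEGFR internalization, at 2.17-fold and 1.85-fold, both named after their values were seen. Cdh5, VE-cadherin, did not pass at 1503 ± 301 CPM in the KO and 1953 ± 92.9 CPM in controls (adjusted p = 0.0935).

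Genes that process or store VEGF ligands went both ways, with 5 falls, 3 rises and 4 not passed among 12 tested of 14. All genes tested had 22.2% falls and 23.0% rises. The list's median log2 fold change was -0.29. Ccbe1, the cofactor that activates VEGF-C outside the cell, held 0.0707, 0.130, 0.233 and 0.177 CPM in KO 1 to 4 and 2.08, 1.46 and 1.10 CPM in controls 1 to 3. The groups were well apart at this low level, and the fitted fall was 9.71-fold (adjusted p = 0.000241). The lysosomal protease gene Ctsd, which can also cleave VEGF-C, averaged 161 ± 49.0 CPM in the KO and 596 ± 37.3 CPM in controls (adjusted p = 0.000193). Plau, urokinase, fell to 32.2 ± 8.77 CPM in the KO, against 100.1 ± 9.89 CPM in controls (adjusted p = 0.000191), while its receptor gene Plaur rose 2.42-fold (adjusted p = 0.000405). The other rises, named after their values were seen, were of Pcsk5 and Plg. Pcsk5, a proprotein convertase gene, rose by 2.90 on the log2 scale from a low level. It held 0.0728, 0.125 and 0.526 CPM in controls 1 to 3 and 0.814 to 2.19 CPM in KO libraries. Plg, the gene of plasminogen, which hepatocytes make, rose by 1.60. The hepatocyte markers were higher in KO libraries too, 7 of 15 rising, and their part in the rise of Plg was not tested.

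Transcripts that VEGF induces in cultured endothelium rose more often than they fell. Of 20 genes 19 were tested: 10 rose, 3 fell and 6 did not pass, with a median log2 fold change of 1.07. Among all genes tested 23.0% rose and 22.2% fell. Pdgfb, the growth factor that recruits pericytes, stood at 147, 170, 192 and 139 CPM in KO 1 to 4 and at 35.7, 13.5 and 17.6 CPM in controls 1 to 3, a 7.27-fold rise (adjusted p = 0.000147). Plaur is on this list too. Angpt2, the antagonist ligand of Tie2, fell 3.20-fold (adjusted p = 0.000523), and the other falls were of Flt1 itself and of Apln, the tip cell peptide apelin (log2 fold change -1.23, named after its values were seen). The calcineurin target Rcan1 did not pass at 159 ± 25.3 CPM in the KO and 156 ± 8.57 CPM in controls (adjusted p = 0.863), nor did the tip cell genes Esm1 (adjusted p = 0.168) and Dll4 (0.323) in edgeR's test. Of the rises, Egr1, Egr3, Nr4a1 and Nr4a2, named after their values were seen, are immediate-early genes that cell isolation also induces. Nr4a1 stood at 566, 284, 201 and 223 CPM in KO 1 to 4 and at 48.2 to 57.4 CPM in controls. Of 14 other genes of the dissociation response, 7 rose and 0 fell, beside the same 23.0% rising and 22.2% falling among all genes tested. As a percentage of the controls' mean, the median of these genes stood at 232, 214, 121 and 146 in KO 1 to 4 and at 85.1 to 113 in controls. Their part in the list's rises was not tested.

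Among class 3 semaphorins, the other ligands of neuropilins, and their plexin receptors, 5 of 10 tested genes fell, 2 rose and 3 did not pass. For all genes tested the shares were 22.2% falls and 23.0% rises. The list's median log2 fold change was -0.37. Sema3d held 4.63, 9.31, 11.1 and 4.78 CPM in KO 1 to 4 and 57.96, 70.5 and 82.2 CPM in controls 1 to 3, a 9.40-fold fall (adjusted p = 6.23e-05). The plexin genes Plxna4 and Plxna1 fell to 37.9 ± 8.75 and 55.3 ± 2.04 CPM in the KO, against 66.9 ± 5.59 and 74.9 ± 11.5 CPM in controls (adjusted p = 0.00322 and 0.00806). Plxna1 did not pass with library totals. Sema3a, a neuropilin-1 ligand, fell at 0.394 ± 0.101 CPM in the KO and 1.05 ± 0.422 CPM in controls (adjusted p = 0.0142), but not without control 2 or control 3. The rises, of Sema3f and Sema3g, numbered 0 without control 1, control 2 or KO 4, 1 without KO 2 and 3 without control 3 or KO 3. Over all genes tested, rises in these settings made up 14.9% (without control 2) to 24.7% (without KO 3). The falls numbered 3 without control 2 and with library totals, where 16.2% and 12.7% of all genes fell.

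Hypoxia-inducible factors drive Vegfa and Flt1 in many cells. Of 19 tested genes of these factors and their targets, 8 fell, Vegfa among them, 5 rose and 6 did not pass. In all genes tested 22.2% fell and 23.0% rose. The list's median log2 fold change was -0.27. Adm, adrenomedullin, rose 3.16-fold. Car9, a carbonic anhydrase gene, rose to 1.47 CPM on average in the KO, against 0.0927 CPM in controls (log2 fold change 3.91). Each control was at or below the limit given above for a count of 0, so the size of this rise is uncertain. Ndrg1 fell to 97.9 ± 19.8 CPM in the KO, against 358 ± 44.1 CPM in controls (adjusted p = 4.63e-05). Epas1, which encodes HIF-2 alpha and was named after its values were seen, stood at 485, 622, 935 and 542 CPM in KO 1 to 4 and at 1330, 1389 and 1248 CPM in controls 1 to 3 (adjusted p = 0.00410). The glycolytic targets Pgk1 and Ldha did not pass in edgeR's test, at log2 fold changes of 0.22 and 0.26 (adjusted p = 0.0828 and 0.0575). With upper-quartile factors 8 rose, where 30.6% of all genes tested rose. With library totals 8 rose and 4 fell, where 41.1% of all genes rose and 12.7% fell. Without control 2, or without control 3 and KO 1 together, 5 fell, where 16.2% or 16.7% of all genes fell.

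Of 22 transcription factor genes tied to VEGF receptor expression 20 were tested, and 7 rose, 6 fell and 7 did not pass. Over all genes tested 23.0% rose and 22.2% fell. The list's median log2 fold change was -0.08, and 0.04 or 0.18 with upper-quartile factors or library totals. The ETS factor genes Ets1 and Erg fell, to 750 ± 84.9 and 240.4 ± 29.2 CPM in the KO, against 1193 ± 66.5 and 398 ± 30.9 CPM in controls (adjusted p = 0.00265 and 0.00134). Fli1, another ETS factor gene, rose to 146 ± 12.5 CPM in the KO, against 80.8 ± 2.85 CPM in controls (adjusted p = 0.000134). Sox7, Sox17 and Sox18, named after their values were seen, were among the other rises (log2 fold changes 0.74, 0.63 and 0.86). In lane 5 alone 4 of the listed factors rose, where 19.4% of all genes rose.

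**Figure D5:**
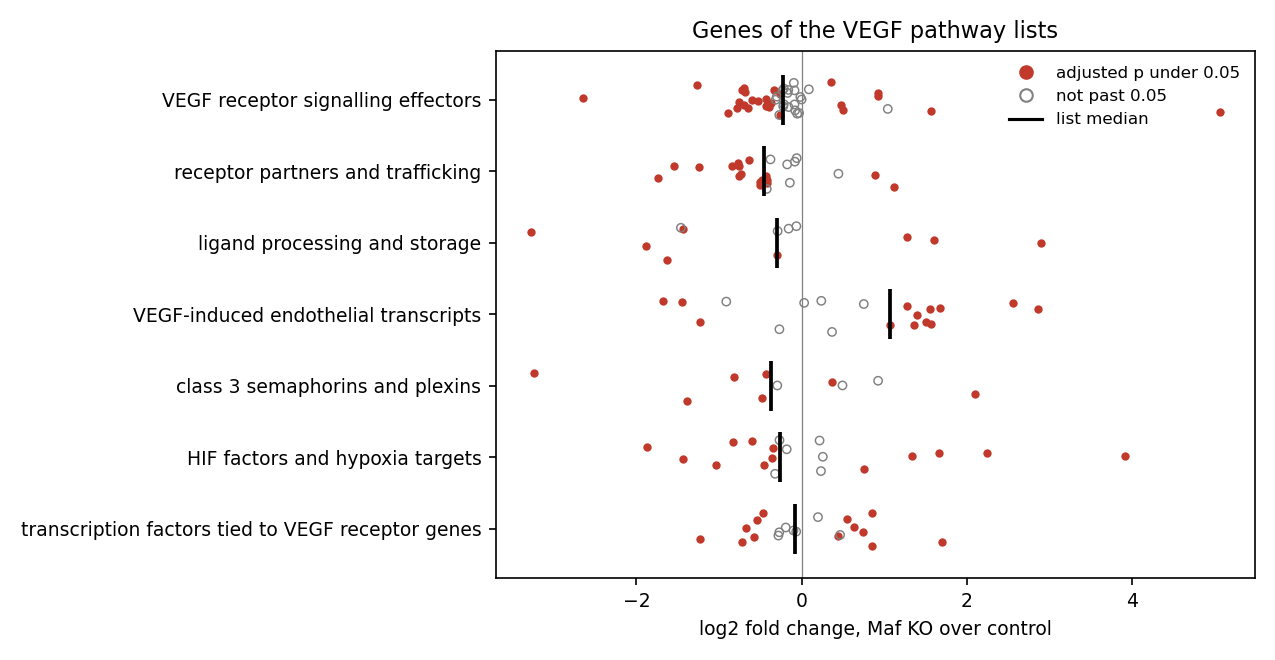
Log2 fold change of Maf KO over control for each tested gene of 7 lists of the VEGF pathway. Filled red points have an adjusted p under 0.05, open points do not, and black bars are list medians, which lie between -0.46 and -0.08 except for VEGF-induced transcripts at 1.07.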

How the data were processed

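The authors deposited 1 table of unnormalized read counts, with Ensembl gene IDs as rows and the 7 libraries as columns. The tools that the submitters' processing notes name are FastQC 0.11.5 and STAR 2.7.6a, and the build is GRCm38. Not given in the sources used here are the counting tool, its strand setting and any filter. Per the labels' protocols an unstranded or a stranded library kit was used, so overlapping genes are uncertain.

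Of 52636 IDs, 52403 matched a symbol, and 0 further value columns were present. Coordinates and exon lengths come from GENCODE mouse release M21 on the same build. In R 4.3.3, edgeR 4.0.16 filterByExpr (minimum count 10, total 15), TMM scaling and the quasi-likelihood F-test without covariates were applied to all genes, with an adjusted p threshold of 0.05. SE is the absolute log2 fold change over the square root of F. Ratios had 0.5 added to counts. Named genes were all members, Maf, up to 4 genes per pathway list with the smallest p among those called, and the 3 genes most like each called member. A gene that this rule takes is not reported here. Members and lists were chosen with earlier results of these data known. Alternatives used DESeq2 1.42.0, limma 3.58.1 voom, other scalings, filters, lane, replicate number and left-out libraries. The tests were checked on simulated counts. Libraries of a group all differed by more than sampling noise (chi-square over degrees of freedom between 14.5 and 106).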

Additional observations from a re-analysis of the deposited data

How the results depend on the processing

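The 8 tested family members kept their direction and their call in all 19 alternatives, which changed the scaling, the filter, the tool, the lane or replicate terms, or the libraries used. Kdr ranged from -1.10 to -0.60 on the log2 scale (highest adjusted p = 0.0448 over the tools run) and Nrp1 from -1.003 to -0.51 (0.0325), the lowest sizes with library totals, where the median of all genes moved to 0.31. Flt4 ranged from -2.12 to -1.58 and Vegfc from 0.96 to 1.52. Over all genes, library totals gave 6373 rises and 1976 falls, against 3561 and 3448 with TMM. Counts in pathway lists moved by over 1.5 times as follows. With library totals, effectors had 12 rises and 11 falls, partners 9 falls, semaphorins 3 falls, and hypoxia genes 8 rises and 4 falls. In that setting 41.1% of all genes rose and 12.7% fell. With upper-quartile factors hypoxia genes had 8 rises, where 30.6% of all genes rose. Semaphorin rises numbered 1 without the filter, with at least 50 counts in 3 libraries, and with the replicate block. In these settings 12.6%, 25.3% and 16.4% of all genes rose. Transcription factor rises numbered 4 in lane 5 alone, where 19.4% of all genes rose. Hypoxia falls numbered 5 without control 3 and KO 1 together, chosen after the data were seen, where 16.7% of all genes fell. With single libraries left out, semaphorin rises ranged from 0 to 3, semaphorin falls from 3 to 6 and hypoxia falls from 5 to 8. Over all genes, rises then ranged from 14.9% to 24.7% and falls from 16.2% to 25.8%. The cause was not tested. Deviations of KO and control libraries with the same replicate number correlated at -0.01, 0.16 and 0.07 for numbers 1 to 3. Libraries with different numbers correlated at -0.18 to 0.08. So few pairs cannot decide whether the numbers pair the libraries. The replicate block called 2542 rises and 2627 falls and left the calls of all 8 members in place. The 5 ratios kept their direction in each alternative in which they were run. Depth limits Pgf and Vegfd, which had at most 4 and 12 counts in a library and did not pass the filter on low counts.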
